A study of Rattus norvegicus with 24 samples.

Results

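Repeated atrophy of the tibialis anterior (TA) was compared with control muscle in aged rats, using the 3 left limbs labelled Repeated TTX and, as control, the 9 right limbs of all animals that received TTX in the left limb. These are 12 of the 24 libraries of the series, and every library whose label gives the condition Repeated TTX was used. TTX (tetrodotoxin) blocks the sodium channels of the nerve, so that the muscles it supplies cannot be activated while muscle and nerve stay connected. All animals were male Fischer 344 rats aged 23 ± 1 months, and TTX was given to the left common peroneal nerve from an implanted osmotic pump. The repeated atrophy animals (364, 365 and 366) received TTX for 6 to 7 days, then 9 days without it, then TTX again for 5 to 6 days. The control limbs were not exposed to TTX but belong to treated animals: 3 to these repeated atrophy animals, 3 to animals sampled after the initial TTX period (atrophy: 362, 367 and 372) and 3 to animals sampled after the recovery period (recovery: 369, 370 and 371). The control group therefore mixes limbs from 3 stages. Both limbs of 3 sham animals, operated on without TTX, served as a further reference.

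Skeletal muscle reads its own activity. In an innervated, active fibre the acetylcholine receptor is made almost only under the nerve ending, and enzymes for glycogen, glucose and fat use are kept at the level of an adult fibre; when activity stops, myogenic factors of the MyoD family rise in the nuclei along the fibre, and receptor subunits and immature channels are made outside the synapse. Loss of mass follows from protein breakdown by the ubiquitin proteasome system and autophagy, set against synthesis on ribosomes.

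Each library held 18.9 to 30.9 M reads (M: 1000000) as inferred from the values, with 23.9, 28.2 and 26.2 M in the repeated atrophy limbs and a control median of 26.9 M. Values are CPM (reads per 1000000 reads assigned to the table) divided by a size factor from the median of ratios, called rescaled CPM below, and differences are log2 fold changes on log2(rescaled CPM + 1) with their standard error (SE) from limma. A row was called when its adjusted p (Benjamini-Hochberg, over all rows tested) did not exceed 0.05 and it changed by 1.2-fold or more. Within each group every limb came from a different animal, and p-values measure the spread between these limbs. The fit treats all limbs as independent and ignores that left and right limbs of an animal are paired. The muscle label held in every limb: 12 fibre markers summed to 218000, 314080 and 374240 rescaled CPM in control limbs (lowest, median and highest) and to between 107660 and 165590 in repeated atrophy limbs. The 10 most abundant rows took 24.3% to 32.7% of all CPM in control limbs but 15.6% to 19.2% in repeated atrophy limbs, a difference that the size factors address. Without rescaling, the median log2 fold change of all rows was 0.20 instead of -0.01, and 18.2% instead of 47.4% of the calls were lower. The right limb of animal 372 stood nearest to the repeated atrophy limbs. It was the lowest control limb for 87 of the 130 genes called at least 4-fold lower and the highest for 39 of the 102 called at least 4-fold higher, and the right limb of animal 366 was the highest for another 40. Without the limb of animal 372, 3909 rows were called.

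Of 14031 rows tested, 3548 (25.3%) were called, 1868 (13.3%) higher and 1680 (12.0%) lower after repeated atrophy. In 2321 rows (16.5%) the 3 repeated atrophy limbs did not overlap the 9 control limbs, higher in 8.65% and lower in 7.9% of all rows, and 2156 rows were both called and not overlapping. For 1516 of these, the repeated atrophy limbs also lay outside the range of the 6 sham limbs. Changes of at least 4-fold were called for 107 rows higher and 138 lower. Of the 3548 called rows, 3418 moved the same way in all 3 animals when each left limb was set against its own right limb. The calls rest on the same left limbs and on a control group that holds these right limbs. This agreement is therefore partly built into the selection and is no separate test. With animal as a block, 2955 rows (21.1%) were called, 10.8% higher and 10.2% lower, and 2584 of the 3548 were among them in the same direction. With 3 own right limbs as the only control, 2056 rows (14.8%) were called, 7.29% higher and 7.53% lower, and with the 3 sham left limbs as control, 613 (4.42%), 2.64% higher and 1.78% lower. Unrescaled values gave 4812 (34.3%), 28.1% higher and 6.24% lower. The comparison with the 3 sham left limbs ended the call of 56 of the 97 called genes described below. The calls that held there were those of Chrna1, Chrnb1, Chrnd, Chrng, Chrne, Ncam1, Kcna7, Kcnn3, Myog, Myod1, Runx1, Perm1, Fbp2, Gpd1, Pfkfb1, Gys1, Hk2, Slc16a3, Gabarapl2, Gadd45a, Cdkn1a, Mt1, Atf4, Rpl3l, Polr1a, Hspb8, Myh7, Sln, Emb, Dclk1, Ppp1r14c, Adra1b, Krt8, Lmod1, Cmbl, Dhrs7c, Ddit4l2, Fst, Irs1, Nfil3 and C1qc. Leaving out animal 365's repeated atrophy limb left 2270 calls, 364's 2540 and 366's 3044.

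**Figure D1:**
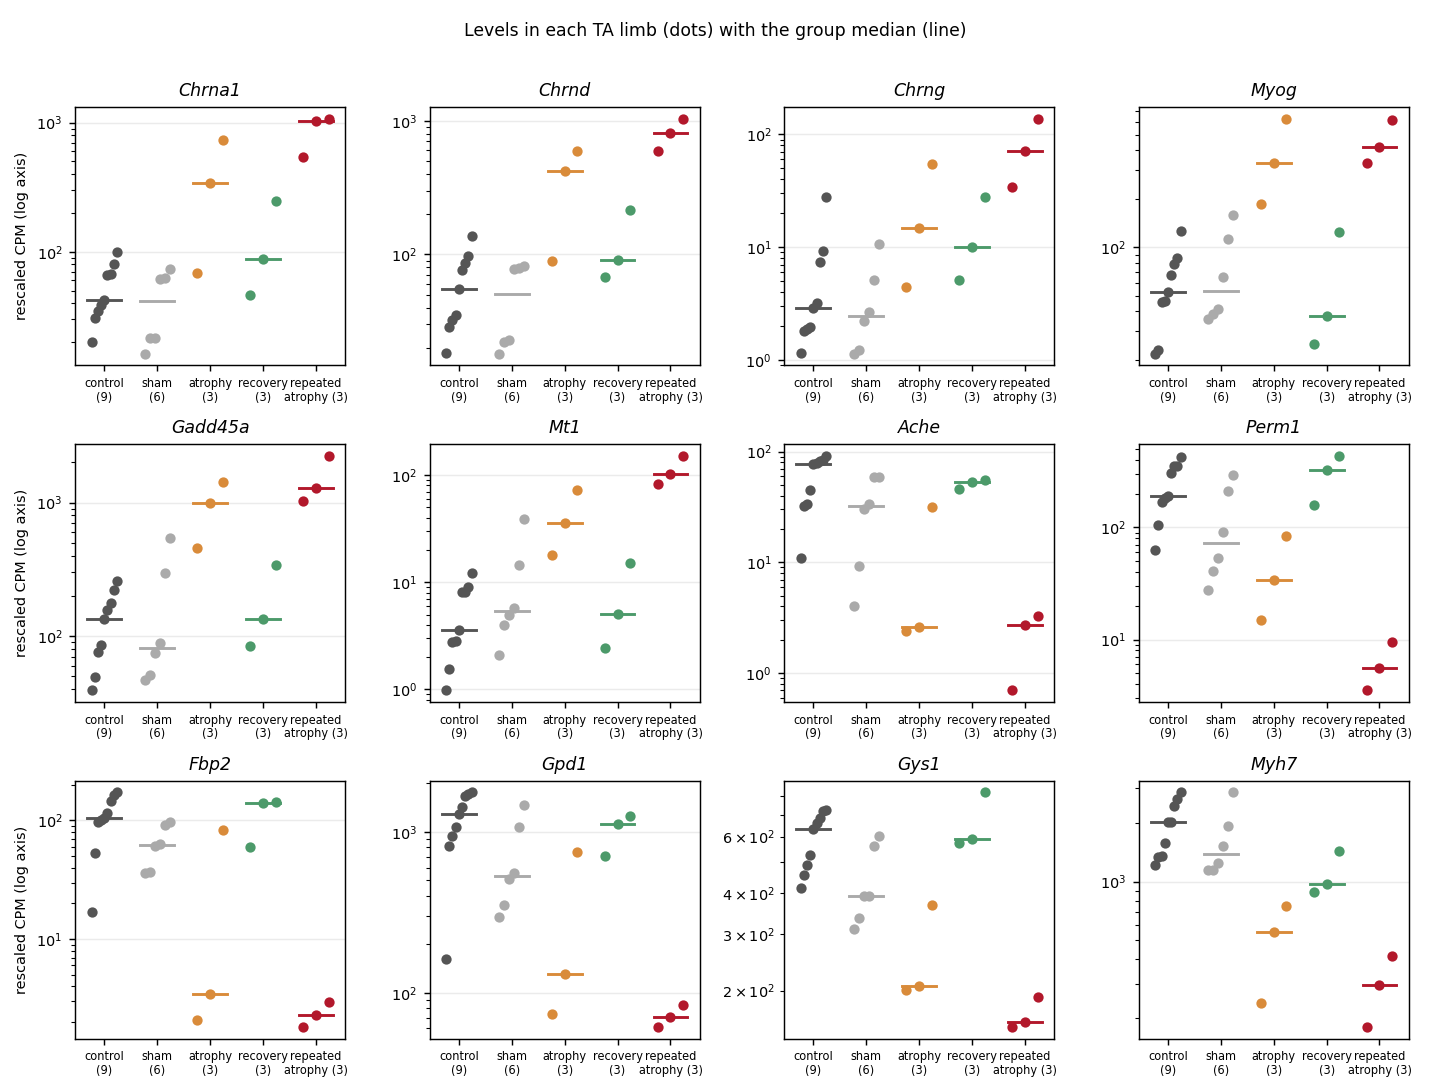
Rescaled CPM (log axis) of 12 genes in each TA limb, with dots for limbs and lines for group medians, in control (9 limbs), sham (6), atrophy (3), recovery (3) and repeated atrophy (3). In all 12 panels the repeated atrophy limbs lie beyond the range of the 9 control limbs.

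The alpha, delta and gamma subunits of the acetylcholine receptor of the neuromuscular junction rose most among the synaptic genes. The adult receptor is built from the alpha, beta, delta and epsilon subunits (Chrna1, Chrnb1, Chrnd and Chrne), and the fetal form holds the gamma subunit (Chrng) in place of epsilon. Chrna1 (rn7, chromosome 3, 58454765 to 58469833) stood at 542, 1034 and 1066 rescaled CPM in the limbs of animals 364, 365 and 366, against 20.0, 42.7 and 99.6 (lowest, median, highest) in control limbs (log2 fold change 4.11, SE 0.59, adjusted p = 0.00013). Chrnd stood at 594, 814 and 1030.4 against 18.2, 55.4 and 137 (log2 fold change 3.89, SE 0.57, adjusted p = 0.00016). Chrng stood at 34.2, 70.9 and 137 against 1.14, 2.88 and 27.9 (log2 fold change 3.81, SE 0.74, adjusted p = 0.0012). For these 3 subunits the 3 limbs were higher than every control and sham limb, and the limb of animal 364 was the lowest of the 3 for each. The Chrng call did not hold when the 3 own right limbs were the only control (adjusted p = 0.052). The beta and epsilon subunits rose less. Chrnb1 reached 196, 161 and 193 against 64.2, 83.4 and 104 (log2 fold change 1.12, SE 0.16, adjusted p = 0.00013), and Chrne reached 30.5, 24.98 and 36.9 against 8.17, 11.4 and 14.2 (log2 fold change 1.40, SE 0.22, adjusted p = 0.00027). Per kilobase of transcript, the gamma subunit had a mean level of 3.48 ± 4.66 (SD) in control and 44.1 ± 28.4 (SD) in repeated atrophy limbs, and epsilon 6.86 ± 1.35 (SD) and 19.1 ± 3.69 (SD), so that gamma lay below epsilon in control means and above it in repeated atrophy means. The 3 repeated limbs held 18.7, 38.7 and 74.8 per kilobase for gamma and 18.9, 15.5 and 22.8 for epsilon, so that in animal 364 the levels of both were almost equal.

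The promoter stretches of the 5 subunits are shown because the family of myogenic factors that also rose binds the E-box, CANNTG. Each stretch is the 120 bases before the gene start in RefSeq (GRCr8, strand of the gene), with CANNTG in capitals, a motif that reads the same on both strands:
Chrna1 (chr3:78877354-78877473, - strand): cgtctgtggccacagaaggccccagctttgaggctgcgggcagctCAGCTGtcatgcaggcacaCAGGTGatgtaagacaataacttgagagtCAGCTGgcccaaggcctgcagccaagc
Chrnb1 (chr10:55015108-55015227, - strand): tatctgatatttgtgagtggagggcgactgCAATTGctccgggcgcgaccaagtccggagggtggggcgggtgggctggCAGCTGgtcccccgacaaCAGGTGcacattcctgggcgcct
Chrnd (chr9:95310196-95310315, + strand): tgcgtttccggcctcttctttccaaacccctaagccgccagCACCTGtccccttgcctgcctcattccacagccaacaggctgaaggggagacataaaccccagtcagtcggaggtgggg
Chrng (chr9:95325864-95325983, + strand): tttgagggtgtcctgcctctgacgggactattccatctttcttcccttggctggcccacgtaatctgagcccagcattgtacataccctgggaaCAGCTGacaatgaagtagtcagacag
Chrne (chr10:55834155-55834274, - strand): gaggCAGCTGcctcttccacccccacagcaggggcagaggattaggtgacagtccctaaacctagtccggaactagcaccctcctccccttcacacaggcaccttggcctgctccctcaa
The form CAGCTG, the E-box these factors prefer, is present in 4 of these 5 stretches and not in that of Chrnd, which holds 1 CANNTG of another form. CAGCTG occurs in 15.1% and CANNTG in 72.1% of all 33469 promoter entries of 300 bases. CAGCTG was in 15.3% of the 1414 entries of genes called higher and 17% of the 7383 of genes not called.

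Of 18 synaptic genes tested, 9 rose and 1 fell (2 and 3 fell without the repeated atrophy limb of animal 364 and 366), with a median log2 fold change of 0.71 against -0.01 over all rows. Musk, the receptor kinase that clusters the acetylcholine receptor, stood at 2.99, 5.33 and 6.48 against 0.694, 1.11 and 1.84 (log2 fold change 1.43, SE 0.31, adjusted p = 0.0029), and its call was absent with the own right limbs only (adjusted p = 0.05). Ncam1, an adhesion molecule that spreads over the fibre surface after activity is lost, rose to 98.4, 286 and 424 against 10.2, 25.9 and 50.3 (log2 fold change 3.13, SE 0.52, adjusted p = 0.00035). The gene that fell with all limbs included was Ache, which encodes the acetylcholine-degrading enzyme of the junction (rn7, chromosome 12, 19407360 to 19412012). It stood at 3.27, 0.702 and 2.71 against 10.99, 76.5 and 91.9 (log2 fold change -4.10, SE 0.63, adjusted p = 0.0002). The sham limbs of Ache reached down to 4.05, just above the highest repeated atrophy limb, and the call was absent against the 3 sham left limbs (adjusted p = 0.1).

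Membrane channels changed in both directions, 4 of 20 higher and 12 lower (20% and 60%, against 13.3% and 12.0% of all rows). On unrescaled values 5 were higher and 9 lower, and against the sham left limbs 3 were higher and 3 lower. Scn4a, the sodium channel of adult fibres, stood at 179.8, 224 and 411 against 236, 395 and 461 and did not pass the test (log2 fold change -0.49, SE 0.24, adjusted p = 0.15). Kcnn3, a calcium-activated potassium channel of inactive muscle, rose to 87.7, 86.0 and 104 against 11.2, 17.2 and 31.4 (log2 fold change 2.30, SE 0.31, adjusted p = 9.6e-05). Falls were deepest for Aqp4, the water channel of fast fibres, at 3.61, 0.169 and 0.164 against 11.9, 61.2 and 149 (log2 fold change -4.92, SE 0.88, adjusted p = 0.00066). Kcna7, a potassium channel that also fell, stood at 18.2, 18.7 and 25.7 against 194, 226 and 297 (log2 fold change -3.49, SE 0.42, adjusted p = 3.9e-05), and Clcn1, the chloride channel, at 22.5, 34.9 and 73.4 against 86.8, 126 and 144 (log2 fold change -1.55, SE 0.31, adjusted p = 0.0013).

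Factors of the MyoD family rose. Of 12 tested genes for myogenic factors and fusion, 6 were higher and 2 lower (median log2 fold change 0.71). Myog stood at 615, 416 and 332 against 21.8, 52.95 and 126 (log2 fold change 3.03, SE 0.50, adjusted p = 0.00039), and Mymk, the membrane protein that drives fusion of myoblasts, at 33.8, 151 and 119 against 0.311, 3.66 and 12.5 (log2 fold change 4.16, SE 0.78, adjusted p = 0.00091). Both were higher in the 3 limbs than in every control limb. Myf5 rose to 36.3, 48.1 and 25.3 against 2.23, 4.42 and 11.1, Myf6 to 571, 528 and 457 against 133, 161 and 306 and Myod1 to 137, 168 and 144 against 47.9, 61.3 and 102, with log2 fold changes of 2.71, 1.55 and 1.14 (SE 0.47, 0.24 and 0.25, limma adjusted p = 0.00054, 0.00022 and 0.0032). The Myod1 call was absent with the own right limbs only (adjusted p = 0.073). For Myf5 and Myf6 a sham limb lay as high as the repeated atrophy limbs, at 60.3 and 666. Runx1, a transcription factor induced by denervation, stood at 103, 46.6 and 74.3 against 2.02, 8.07 and 20.1 (log2 fold change 3.07, SE 0.52, adjusted p = 0.00046). Among the deacetylases that link activity to receptor genes, Hdac4 stood at 15.4, 17.4 and 37.9 against 3.06, 7.28 and 18.6 (log2 fold change 1.32, SE 0.40, adjusted p = 0.023) and Hdac9 at 0.162, 0.309 and 0.573 against 0.310, 2.73 and 4.04 (log2 fold change -1.11, SE 0.33, adjusted p = 0.019). The limbs of both overlapped the control range, and the Hdac4 call was absent with the own right limbs only (adjusted p = 0.1).

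**Figure D2:**
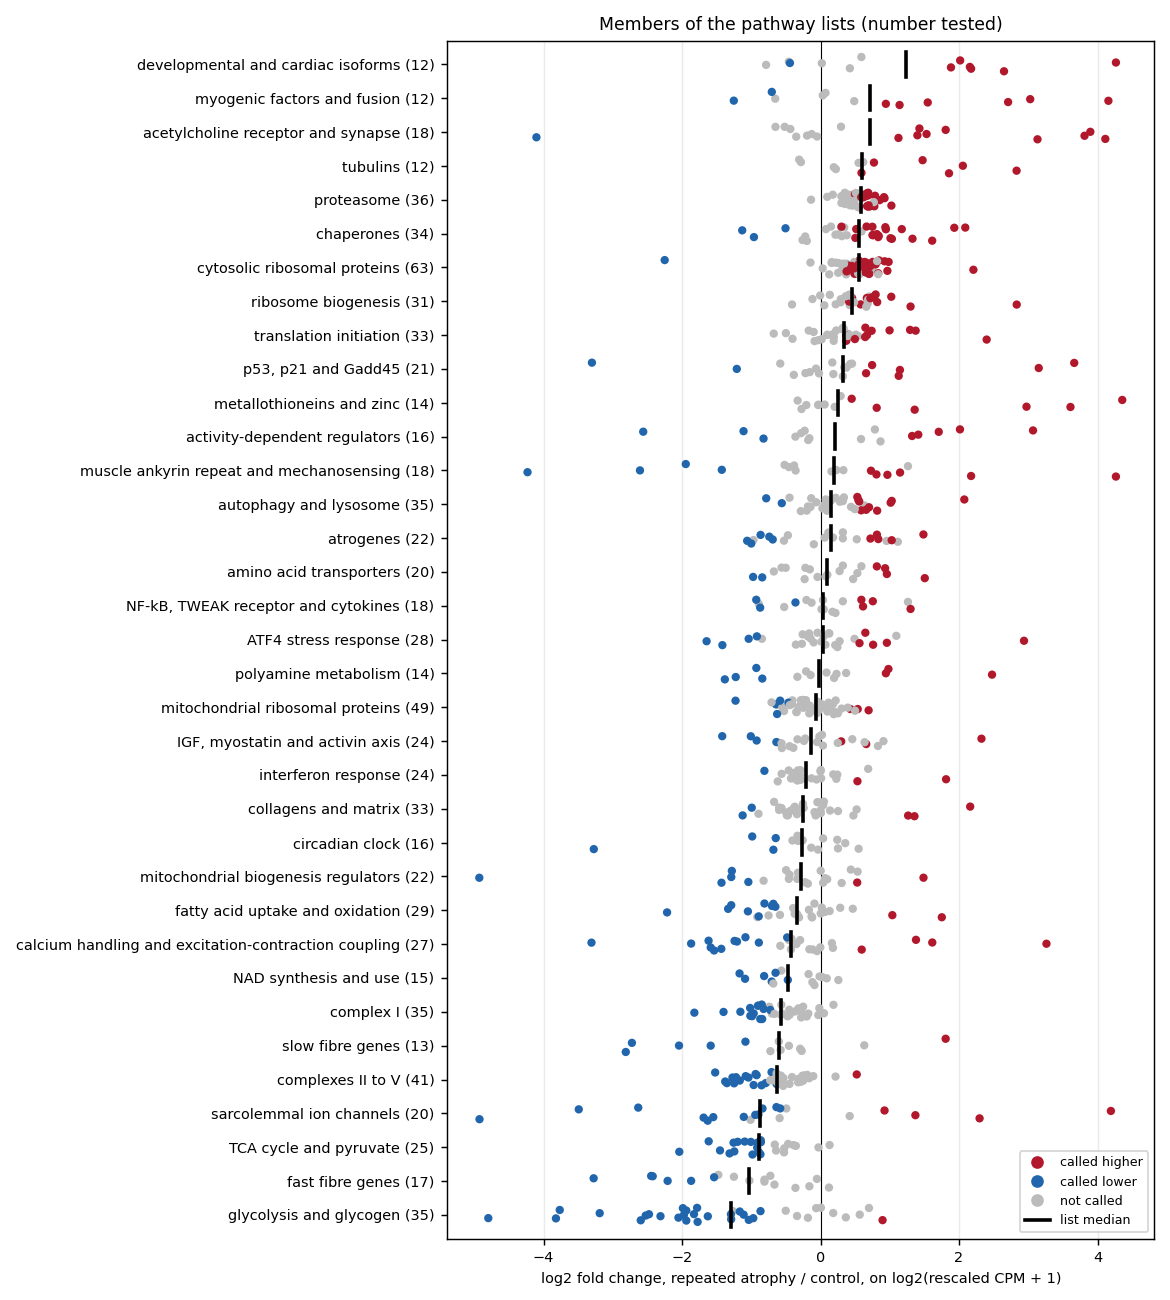
Log2 fold change (repeated atrophy / control, on log2(rescaled CPM + 1)) of each tested member of 35 gene lists, with the number tested in brackets, colours for calls and a bar at the list median. The median runs from -1.29 for glycolysis and glycogen to 1.24 for developmental and cardiac isoforms, and most members of the proteasome and ribosome lists sit close together above 0.

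Glycolysis and glycogen metabolism had the lowest median of the 35 pathway lists (-1.29), with 24 of 35 genes lower and 1 higher, while 23 were lower and 4 higher with an animal block, and 23 lower and 5 higher on unrescaled values. Fbp2, the muscle fructose bisphosphatase (rn7, chromosome 17, 2236336 to 2253701), stood at 2.95, 1.82 and 2.29 against 16.8, 105 and 173 (log2 fold change -4.80, SE 0.76, adjusted p = 0.00027). Gpd1, which feeds cytosolic reducing equivalents to mitochondria, stood at 70.7, 61.4 and 84.5 against 161, 1288 and 1762 (log2 fold change -3.82, SE 0.63, adjusted p = 0.00036), and Pfkfb1, which makes the activator of phosphofructokinase, at 5.36, 2.60 and 4.55 against 42.4, 73.1 and 87.6 (log2 fold change -3.77, SE 0.46, adjusted p = 4.2e-05). For all 3 the repeated atrophy limbs lay below every control and sham limb. Of the more abundant enzymes, 3 are given here, all without overlap of limbs with control. Pfkm, muscle phosphofructokinase, stood at 1163, 1014 and 1075 against 3652, 4766 and 5244 (log2 fold change -2.05, SE 0.31, adjusted p = 0.00017). Eno3, muscle enolase, stood at 2524, 1303 and 1343 against 4134, 9271 and 16609 (log2 fold change -2.52, SE 0.48, adjusted p = 0.001). Pygm, glycogen phosphorylase, stood at 4931, 3164 and 3486 against 10136, 15747 and 17371 (log2 fold change -1.97, SE 0.44, adjusted p = 0.0032). On the synthesis side of glycogen, Gys1 stood at 155, 159.7 and 191 against 416, 635 and 725 (log2 fold change -1.78, SE 0.21, adjusted p = 3.6e-05) and Ppp1r3c, a subunit that targets phosphatase to glycogen, at 125, 57.2 and 72.2 against 467, 741 and 1136 (log2 fold change -3.19, SE 0.49, adjusted p = 0.00021). Hk2, hexokinase, was the member that rose, at 157, 181 and 215 against 53.6, 102 and 149.6 (log2 fold change 0.89, SE 0.27, adjusted p = 0.02), and its call was absent with the own right limbs only (adjusted p = 0.17). Slc16a3, which exports lactate, stood at 35.3, 17.5 and 15.4 against 118, 327 and 430.2 (log2 fold change -3.68, SE 0.44, adjusted p = 3.8e-05).

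In the tricarboxylic acid cycle and the respiratory chain the median falls were smaller than in glycolysis, and many members were not called. Of 25 genes of the cycle and of pyruvate entry, 16 fell and none rose (median log2 fold change -0.89). Idh2 stood at 251, 162 and 177 against 497, 746 and 1176 (log2 fold change -2.04, SE 0.29, adjusted p = 0.00014). Sdha, which also belongs to complex II, stood at 334, 280.2 and 284 against 404, 715 and 1117 (log2 fold change -1.27, SE 0.26, adjusted p = 0.0019). Mdh1, in this list although its malate dehydrogenase is cytosolic and outside the cycle itself, stood at 107, 129 and 98.7 against 139, 301 and 551 (log2 fold change -1.45, SE 0.31, adjusted p = 0.0025). Of complex I, 13 of 35 subunits fell and none rose (median -0.57), and of complexes II to V, 18 of 41 fell and 1 rose (median -0.63). The largest falls were Ndufs7 in complex I, at 72.4, 37.3 and 60.3 against 98.8, 219 and 309 (log2 fold change -1.82, SE 0.37, adjusted p = 0.0015), and Atp5mc1, a ring subunit of ATP synthase, at 106, 87.5 and 82.0 against 139, 261 and 488 (log2 fold change -1.52, SE 0.32, adjusted p = 0.0019). Cycs, cytochrome c, stood at 415, 431 and 223 against 418, 995 and 1562 (log2 fold change -1.35, SE 0.36, adjusted p = 0.011), with the highest repeated limb within the control range and no call with the own right limbs only (adjusted p = 0.085). Cox8a was the exception that rose, at 43.8, 45.9 and 36.4 against 24.1, 28.1 and 37.2 (log2 fold change 0.52, SE 0.14, adjusted p = 0.012), also overlapping the control range. These counts shifted with single limbs. Complex I calls were 13, 12, 5 and 3 with all limbs and without the repeated atrophy limb of animal 364, 365 and 366, respectively, those of complexes II to V were 18, 18, 7 and 9 and those of the cycle 16, 13, 8 and 8. Without the control limb of animal 372, 21 complex I genes were lower, and with an animal block 8 were, beside 13 of complexes II to V and 13 of the cycle. With the sham left limbs as control, none of the complex I, II to V or cycle genes was called. On unrescaled values 9 of 35 complex I genes, 11 of 41 of the other complexes and 12 of 25 of the cycle were lower.

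Fatty acid use showed the weakest of these falls, 9 of 29 genes lower and 2 higher, with a median of -0.34 that became 0.03 on unrescaled values. Without the repeated atrophy limb of animal 365 or 366, 5 were lower. Hadh stood at 39.5, 33.4 and 33.4 against 82.1, 169 and 264 (log2 fold change -2.22, SE 0.36, adjusted p = 0.00034) and Acadm at 409, 377 and 267 against 577, 811 and 1163 (log2 fold change -1.29, SE 0.26, adjusted p = 0.0014), both enzymes of mitochondrial beta oxidation. Fabp3, a fatty acid carrier of heart and muscle, rose to 467, 878 and 413 against 178, 283 and 362 (log2 fold change 1.04, SE 0.34, adjusted p = 0.031), and the mitochondrial uncoupling protein Ucp3 to 442, 454 and 442 against 50.8, 87.5 and 495 (log2 fold change 1.75, SE 0.59, adjusted p = 0.036), its control limbs reaching as high as the repeated limbs. The Fabp3 call was absent with the own right limbs only (adjusted p = 0.12). Lpl, lipoprotein lipase, spread from 98.2 in animal 364 to 352 in animal 365 and was not called (log2 fold change 0.46, SE 0.32, adjusted p = 0.31).

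Among regulators of mitochondrial biogenesis, Perm1, an activator of oxidative and contractile genes in muscle, had the largest fall of all named genes. The gene lies at rn7, chromosome 5, 166800030 to 166805324. It stood at 9.42, 5.58 and 3.53 against 63.0, 191 and 425 (log2 fold change -4.93, SE 0.53, adjusted p = 2.7e-05). Ppargc1a, the coactivator PGC-1 alpha, stood at 0.727, 1.07 and 1.51 against 2.30, 4.84 and 8.55 (log2 fold change -1.43, SE 0.29, adjusted p = 0.0017). The 3 limbs were lower than every control limb for both genes, and 5 of 22 regulators were lower and 2 higher (22.7% and 9.09%, against 12.0% and 13.3% of all rows). None was higher with the own right limbs only, and 1 was without the repeated atrophy limb of animal 364 or 365.

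Part of the slow and fast fibre genes fell, while fetal isoforms rose. Of 13 slow fibre genes 5 fell and 1 rose, of 17 fast fibre genes 6 fell, and of 12 developmental and cardiac isoforms 6 rose and 1 fell. Myh7, the slow myosin, stood at 181, 295 and 414 against 1219, 2008 and 2859.6 (log2 fold change -2.72, SE 0.34, adjusted p = 5.2e-05). The fast adult myosins were lower in value but not called. Myh1 stood at 27226, 13311 and 15490 against 35976, 52581 and 68245 (log2 fold change -1.48, SE 0.72, adjusted p = 0.15), Myh4 at 40220, 27776 and 33591 against 51317, 72372 and 89216 (log2 fold change -1.03, SE 0.81, adjusted p = 0.39) and Myh2 at 1912, 3618 and 2168 against 1928, 3430.0 and 5154 (log2 fold change -0.36, SE 0.43, adjusted p = 0.59). Limbs of Myh1 and Myh4 did not overlap between the groups, whereas those of Myh2 did, and the fit without an intensity trend called both Myh1 and Myh4 (adjusted p = 0.0036 and 0.026). Quantile normalization gave Myh4 a log2 fold change of 0.03 and Myh2 0.07. Actn3, the fast fibre actinin, stood at 3862, 1568 and 2468 against 6049, 15320 and 17979 (log2 fold change -2.45, SE 0.56, adjusted p = 0.0041), and Mybpc2, fast myosin-binding protein C, at 2597, 986 and 1264 against 4452, 9094 and 11442 (log2 fold change -2.42, SE 0.46, adjusted p = 0.0011). In the opposite direction, embryonic Myh3 rose to 96.8, 152 and 237 against 5.22, 27.7 and 53.01 (log2 fold change 2.65, SE 0.74, adjusted p = 0.013) and perinatal Myh8 to 47.1, 98.4 and 82.8 against 11.1, 16.6 and 28.1 (log2 fold change 2.01, SE 0.37, adjusted p = 0.0008). The cardiac troponin Tnnt2 rose to 13.8, 16.6 and 20.8 against 1.29, 2.35 and 7.45 (log2 fold change 2.16, SE 0.60, adjusted p = 0.013). The calls of Myh3 and Tnnt2 were absent with the own right limbs only (adjusted p = 0.084 and 0.095) and against the sham left limbs (adjusted p = 0.19 and 0.39). Cardiac actin Actc1 at 23.8, 72.8 and 92.3 against 11.7, 39.8 and 72.6 was not called.

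Most called genes of the calcium store were lower. Of 27 genes of calcium handling, 11 fell and 4 rose, and 7 fell without the repeated atrophy limb of animal 365. Against the sham left limbs none was lower and 3 were higher. Casq1, the calcium buffer of the store, stood at 1195, 856 and 898 against 1005, 2682 and 5474 (log2 fold change -1.54, SE 0.40, adjusted p = 0.009), and Jph2, which ties the store to the surface membrane, at 10.5, 13.4 and 37.3 against 44.8, 250.3 and 353 (log2 fold change -3.31, SE 0.60, adjusted p = 0.00073). Atp2a1, the fast calcium pump, stood at 14275, 10722 and 14001 against 32338, 49900 and 56940 (log2 fold change -1.87, SE 0.63, adjusted p = 0.038), and its call was absent with an animal block (adjusted p = 0.11). Sln, sarcolipin, an inhibitor of that pump, rose to 87.5, 79.5 and 42.3 against 1.76, 5.85 and 17.4 (log2 fold change 3.26, SE 0.51, adjusted p = 0.00024).

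Protein breakdown was followed in several lists. Of 22 atrogenes 5 rose and 5 fell (22.7% each, against 13.3% and 12.0% of all rows). On unrescaled values, where 28.1% of all rows were called higher and 6.24% lower, 8 rose and 1 fell. Without the repeated atrophy limb of animal 364 or 365, 3 rose, and none was called against the sham left limbs. Trim63 (MuRF1), a ubiquitin ligase of wasting muscle, stood at 1365, 584 and 444 against 161, 323 and 1838 (log2 fold change 1.12, SE 0.56, adjusted p = 0.16). Fbxo32 (atrogin-1) stood at 27.9, 30.6 and 30.6 against 2.90, 15.5 and 88.2 (log2 fold change 0.95, SE 0.63, adjusted p = 0.3). Neither passed the test, and for each a control limb exceeded all 3 repeated atrophy limbs. Without the control limb of animal 372, Trim63 was called (adjusted p = 0.012). Fbxo30, another ligase of wasting muscle, rose to 71.0, 60.4 and 37.7 against 11.4, 18 and 28.1 (log2 fold change 1.48, SE 0.25, adjusted p = 0.00036), and Fbxo31 was called at the margin with 412, 284 and 389 against 94.0, 167 and 486 (log2 fold change 1.03, SE 0.37, adjusted p = 0.048). The call for Fbxo31 was absent with an animal block (adjusted p = 0.085).

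Proteasome genes changed in a single direction. Of 36 subunits and assembly factors, 19 rose and none fell (median log2 fold change 0.58). Psma2, of the core ring, stood at 274, 165 and 142 against 67.2, 83.9 and 127 (log2 fold change 1.02, SE 0.21, adjusted p = 0.0015), and Psmd14, the deubiquitinase of the lid, at 168, 115 and 107 against 53.5, 62.0 and 98.1 (log2 fold change 0.92, SE 0.18, adjusted p = 0.0011). Animal 364 held the highest level for both, and without its repeated atrophy limb 3 of 36 were called, against 16 without animal 365 and 20 without animal 366. Without the control limb of animal 372, 27 were called, and on unrescaled values, where 28.1% of all rows were higher, 33. Of 35 autophagy and lysosome genes 10 rose and 2 fell, but 5 rose without the repeated atrophy limb of animal 364, 15 on unrescaled values and 1 against the sham left limbs. Ctsl, a lysosomal protease, stood at 1264, 955 and 715 against 91.7, 257 and 620.1 (log2 fold change 2.07, SE 0.49, adjusted p = 0.0046). A sham limb of Ctsl stood at 1116, above 2 of the 3 repeated atrophy limbs, and its call was absent against the sham left limbs (adjusted p = 0.25). Gabarapl2, which builds the autophagosome, stood at 345, 345 and 250.2 against 114, 150.5 and 229.7 (log2 fold change 1.01, SE 0.21, adjusted p = 0.0019), and Sqstm1, the cargo receptor p62, at 2379, 1310.4 and 1574 against 541, 789 and 1945 (log2 fold change 1.03, SE 0.30, adjusted p = 0.017). The call for Sqstm1 was absent with an animal block (adjusted p = 0.092).

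Genes of ribosomes and translation that were called were nearly all higher. Of 63 cytosolic ribosomal proteins 36 rose and 1 fell (median 0.55), of 31 ribosome biogenesis genes 12 rose and of 33 initiation and elongation factors 12 rose, with none lower in the latter 2 lists. The gene that fell was Rpl3l, the variant of Rpl3 in adult muscle, at 164, 109 and 116 against 357, 627 and 837 (log2 fold change -2.25, SE 0.29, adjusted p = 6.7e-05). Rpl3 itself rose to 621, 632 and 583 against 72.4, 130.2 and 294 (log2 fold change 2.21, SE 0.33, adjusted p = 0.00019), so the pair moved in opposite directions with no overlap of limbs for either. Polr1a, the large subunit of RNA polymerase I, rose to 283, 464 and 494 against 30.7, 48.8 and 216 (log2 fold change 2.83, SE 0.49, adjusted p = 0.00052) and Eef1a1, an elongation factor of immature muscle, to 3109, 4729 and 4076 against 491, 806 and 922 (log2 fold change 2.40, SE 0.32, adjusted p = 7.4e-05). These counts also leaned on animal 364: without its limb, 8 ribosomal proteins, 1 biogenesis gene and 6 factors were called higher. Without the limb of animal 365 these were 19, 6 and 8, and without the control limb of animal 372 they were 41, 20 and 15. Of 49 mitochondrial ribosomal proteins 3 were higher and 5 lower (6.12% and 10.2%, below the 13.3% and 12.0% of all rows). On unrescaled values 14 were higher and 1 lower, near the 28.1% of all rows called higher there, and 60 of the 63 cytosolic ribosomal proteins were higher. With an animal block 4 mitochondrial ones were higher and 1 lower, without the control limb of animal 372 there were 9 lower, and without the repeated atrophy limb of animal 364 none was higher. Chaperones rose in 19 of 34 cases and fell in 3, led by Hspb8, a small heat shock protein, at 4166, 2468 and 2698 against 563, 721 and 1030.3 (log2 fold change 2.09, SE 0.25, adjusted p = 3.8e-05). Hsp90aa1 stood at 602, 453 and 206 against 97.1, 133 and 241 (log2 fold change 1.33, SE 0.29, adjusted p = 0.0031), its lowest limb, of animal 366, inside the control range.

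**Figure D3:**
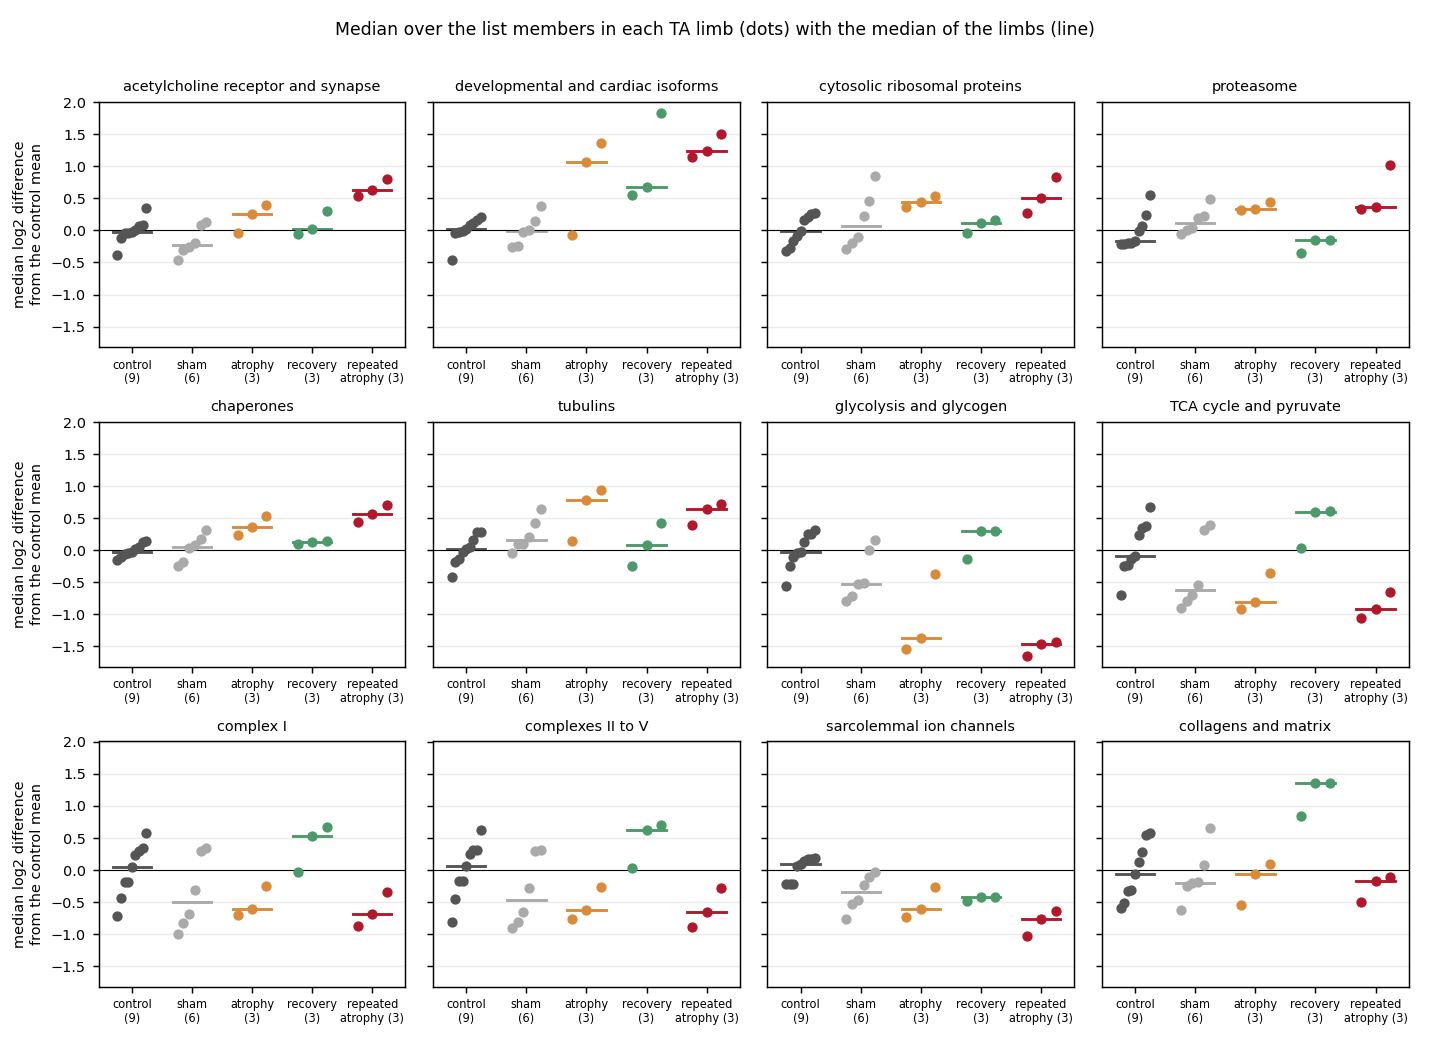
Median over the members of 12 lists of the log2 difference from the control mean, for each limb (dots) with the median of the limbs (line). Repeated atrophy limbs run from 0.54 to 0.80 for the synaptic list and from -1.64 to -1.43 for glycolysis, beyond all control limbs, while for complexes II to V they run from -0.89 to -0.27 and overlap both control and sham limbs.

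For the mitochondrial lists the sham limbs and some control limbs reached as low as the repeated atrophy limbs. The list median of complex I ran from -0.87 to -0.34 in repeated atrophy limbs, from -0.72 to 0.58 in control limbs and from -0.999 to 0.34 in sham limbs. Glycolysis did not overlap in this measure, at -1.64 to -1.43 against -0.56 to 0.32 in control and -0.79 to 0.16 in sham limbs. The same held for the synaptic list and for chaperones, whose repeated atrophy limbs lay at 0.44 to 0.71 and control limbs at -0.15 to 0.14. The proteasome list overlapped control and sham limbs, and cytosolic ribosomal proteins overlapped sham limbs. The proteasome median ran from 0.34 to 1.02 in repeated atrophy limbs, -0.21 to 0.55 in control and -0.05 to 0.49 in sham limbs, and that of cytosolic ribosomal proteins from 0.27 to 0.83, -0.31 to 0.26 and -0.29 to 0.86, in the same order. With the sham left limbs as control, 0 of 36 proteasome genes, 0 of 63 ribosomal proteins, 1 of 31 biogenesis genes and 0 of 33 factors were called higher, against 8 of 18 synaptic genes and 4 of 34 chaperones, and 6 of 35 glycolysis genes were lower.

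Stress and growth arrest genes held some of the largest rises. Mt1 and Mt2A, metallothioneins that bind zinc and copper, stood at 152, 83.3 and 102 against 0.985, 3.63 and 12.3 (log2 fold change 4.36, SE 0.56, adjusted p = 6.0e-05) and at 215, 154 and 117 against 2.13, 13.1 and 50.4 (log2 fold change 3.61, SE 0.67, adjusted p = 0.00088). For Mt1 no sham limb reached the repeated atrophy limbs, whereas for Mt2A a sham limb stood at 155. These paralogs are alike enough that reads may be split between them. Of 14 genes of metallothioneins and zinc transport, 6 rose and none fell, and 3 rose without the repeated atrophy limb of animal 365. Both promoters are shown because they carry copies of the metal response element core, TGCGCNC or TGCACNC, which the zinc sensor Mtf1 binds. The stretches are the 180 bases before the gene start (RefSeq, GRCr8, strand of the gene), and capitals mark the core on either strand:
Mt1 (chr19:10832976-10833155, - strand): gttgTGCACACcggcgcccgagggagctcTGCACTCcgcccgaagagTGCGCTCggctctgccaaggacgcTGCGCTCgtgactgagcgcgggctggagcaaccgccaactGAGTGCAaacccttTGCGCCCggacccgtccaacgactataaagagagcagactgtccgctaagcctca
Mt2A (chr19:10838709-10838888, - strand): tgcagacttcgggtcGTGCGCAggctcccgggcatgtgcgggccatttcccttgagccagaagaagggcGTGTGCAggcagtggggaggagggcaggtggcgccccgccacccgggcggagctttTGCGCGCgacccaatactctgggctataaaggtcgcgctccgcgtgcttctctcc
There are 6 matches in Mt1 and 3 in Mt2A, and 24.2% of all promoter entries of 300 bases hold at least 1. The share was 37.1% among genes called higher and 35.4% among genes not called.

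Gadd45a, a stress-induced regulator of denervated muscle, stood at 2242, 1278 and 1019 against 39.5, 134 and 259 (log2 fold change 3.66, SE 0.53, adjusted p = 0.00015) and Cdkn1a, the cell cycle inhibitor p21, at 1008, 711 and 921 against 29.6, 119 and 177 (log2 fold change 3.15, SE 0.51, adjusted p = 0.00032). Gadd45g, of the same family as Gadd45a, fell to 7.19, 3.06 and 3.83 against 27.7, 51.9 and 99.5 (log2 fold change -3.30, SE 0.52, adjusted p = 0.00027). Both Gadd45a and Cdkn1a were above every control and sham limb. The ATF4 pathway answers a lack of amino acids. Asns, asparagine synthetase, rose to 13.5, 19.9 and 19.3 against 0.207, 1.22 and 3.51 (log2 fold change 2.94, SE 0.50, adjusted p = 0.00042), while Atf4 mRNA fell to 265, 109 and 94.1 against 324, 444 and 697 (log2 fold change -1.65, SE 0.31, adjusted p = 0.0009). Of 28 genes in this list 5 rose and 4 fell (17.9% and 14.3%), near the 13.3% and 12.0% of all rows. Of 14 genes of polyamine metabolism 3 rose and 4 fell (21.4% and 28.6%, against 13.3% and 12.0% of all rows), with a median log2 fold change of -0.03. In polyamine synthesis, Odc1, its entry enzyme, rose to 61.3, 89.1 and 70.7 against 16.5, 39.8 and 49.6 (log2 fold change 0.94, SE 0.24, adjusted p = 0.0075). Amd1, which supplies the aminopropyl donor, fell to 44.3, 37.5 and 25.1 against 65.4, 84.5 and 99.8 (log2 fold change -1.23, SE 0.22, adjusted p = 0.00059).

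Growth factor genes were called about as often as all rows, and clock genes called were all lower. Fst, follistatin, which binds myostatin and activins, rose to 71.6, 48.9 and 26.1 against 5.08, 7.08 and 14.4 (log2 fold change 2.32, SE 0.34, adjusted p = 0.00014), and Mstn, myostatin, fell to 0.727, 1.23 and 2.08 against 2.23, 3.58 and 6.24 (log2 fold change -1.01, SE 0.28, adjusted p = 0.014). Irs1, the insulin receptor substrate, fell to 1.29, 1.29 and 1.72 against 4.49, 5.47 and 7.10 (log2 fold change -1.42, SE 0.18, adjusted p = 5.9e-05). Of 24 genes of this axis 3 rose and 4 fell (12.5% and 16.7%, against 13.3% and 12.0% of all rows), and without the repeated atrophy limb of animal 365, 1 rose and 1 fell. Nfil3, a repressor of the clock output, stood at 4.69, 4.01 and 3.56 against 35.4, 44.8 and 90.7 (log2 fold change -3.27, SE 0.42, adjusted p = 5.9e-05), and Nr1d1, Rev-erb alpha, at 47.1, 42.3 and 47.2 against 51.9, 94.6 and 163 (log2 fold change -0.99, SE 0.25, adjusted p = 0.0078). Of 16 clock genes 4 fell and none rose, and on unrescaled values 1 fell and 1 rose.

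Structural and mechanosensing genes held large changes in both directions, with 6 of 18 higher and 4 lower (33.3% and 22.2%, against 13.3% and 12.0% of all rows), and 3 higher without the repeated atrophy limb of animal 364. Against the sham left limbs none was higher and 2 were lower. Ankrd1, a cardiac ankyrin repeat protein of the sarcomere's elastic filament (rn7, chromosome 1, 233815860 to 233824410), stood at 11694, 4186 and 3319.9 against 53.3, 382 and 1093 (log2 fold change 4.26, SE 0.81, adjusted p = 0.001), with animal 364 more than 2 times above the other two. A sham limb of Ankrd1 reached 2235, and its call was absent against the sham left limbs (adjusted p = 0.067). Ky, a protein needed for maintaining muscle under load, fell to 12.2, 8.90 and 61.2 against 68.9, 409 and 958 (log2 fold change -4.23, SE 0.73, adjusted p = 0.0005). Of 12 tubulins 6 rose and none fell, led by Tubb6 at 504, 245 and 353 against 8.45, 68.5 and 122 (log2 fold change 2.83, SE 0.59, adjusted p = 0.002). A sham limb of Tubb6 stood at 274, inside the repeated atrophy range, its call was absent against the sham left limbs (adjusted p = 0.11), and 1 of 12 tubulins was called there. Among the 12 largest rises outside the lists were Emb, embigin, a partner of lactate transporters, at 314, 269 and 161 against 0.622, 10.1 and 19.2 (log2 fold change 4.82, SE 0.74, adjusted p = 0.0002), and Dclk1, a microtubule-binding kinase, at 254, 894 and 849 against 8.45, 34.8 and 67.2 (log2 fold change 4.11, SE 0.66, adjusted p = 0.0003). Ppp1r14c, a phosphatase inhibitor, and Adra1b, the alpha 1B adrenergic receptor, had log2 fold changes of 4.01 and 3.95 (SE 0.58 and 0.62). Krt8, keratin 8, and MGC105649 had 3.85 and 3.89 (SE 0.54 and 0.47). Falls of this size outside the lists were Lmod1, leiomodin, and Dhrs7c, an enzyme of the calcium store, at -3.65 and -4.37, and Ddit4l2 and Cmbl at -4.63 and -4.26 (SE 0.51, 0.60, 0.43 and 0.51). Adjusted p-values of these 8 genes ranged from 1.3e-05 to 0.00025. A call and repeated atrophy limbs beyond all control limbs were conditions for choosing them.

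**Figure D4:**
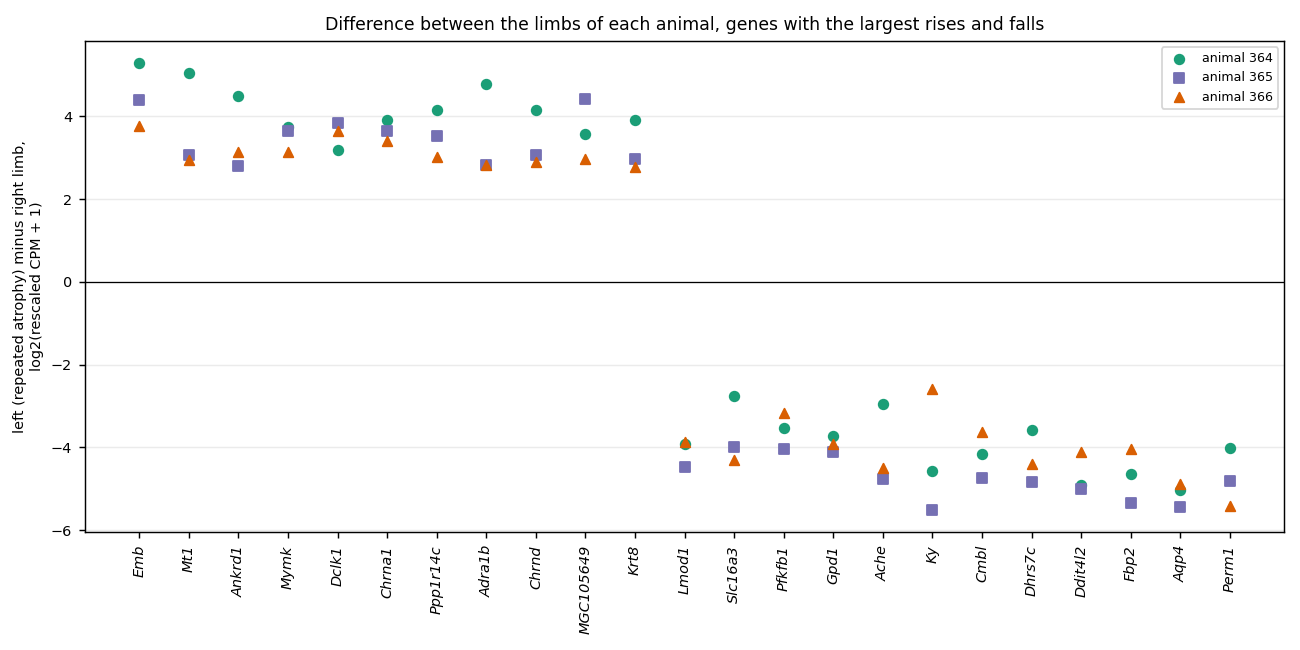
Difference of the left (repeated atrophy) from the right limb of the same animal, on log2(rescaled CPM + 1), for 11 of the 12 largest rises and the 12 largest falls, with a symbol for each of animals 364, 365 and 366. Every rise lay between 2.77 and 5.29 and every fall between -5.52 and -2.58 in all 3 animals. The genes were chosen for repeated atrophy limbs that do not overlap the control limbs, own right limbs included. Their direction in each animal was therefore fixed by the choice, and only the sizes are informative.

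Markers of other cell types gave a partial picture of what the libraries held besides fibres. Of 20 macrophage and leukocyte genes 1 (C1qc) fell and none rose, and their summed level was 143 to 331 in repeated atrophy and 146 to 489 rescaled CPM in control limbs. None of 12 fibroblast and fibro-adipogenic progenitor genes was called, nor of 8 adipocyte or 6 red blood cell genes, in the fit with all limbs. A fibroblast gene was lower with an animal block, without the repeated atrophy limb of animal 366 and without the control limb of animal 372, an adipocyte gene was lower without that control limb, and 2 red blood cell genes were lower without the repeated atrophy limb of animal 364. Endothelial genes fell in 11 of 14 cases, from a summed level of 453 to 590.4 in control to 317 to 362 in repeated atrophy limbs, with median log2 fold change of -0.61 that was -0.23, with 1 called, on unrescaled values. Without the repeated atrophy limb of animal 364, 365 or 366, 6, 4 or 8 endothelial genes were called lower. In bulk tissue, fewer cells of a type and less RNA per cell cannot be told apart. Of 10 satellite cell genes 4 rose and 1 fell, among them Myf5 and Myod1, which fibres also express when inactive, and 2 rose without the repeated atrophy limb of animal 364 or of 365. Of 20 proliferation genes 1 was called, against 3 higher with an animal block, 3 without the repeated atrophy limb of animal 364 and 4 on unrescaled values. That gene, Pcna, rose to 77.5, 68.5 and 42.3 against 20.0, 24.2 and 41.6 (log2 fold change 1.12, SE 0.24, adjusted p = 0.0022). In the Schwann cell list 2 of 14 rose and 1 fell (14.3% and 7.14%, against 13.3% and 12.0% of all rows), and Ncam1, which is in both this list and the synaptic list, held most of the rise in its summed level from 101 to 186 in control to 206 to 525 in repeated atrophy limbs. Of 9 smooth muscle and pericyte genes 2 fell and none rose (median log2 fold change -0.58), with a summed level of 171 to 229.9 in repeated atrophy and 213 to 440.0 rescaled CPM in control limbs. That count was 8 with an animal block (median -0.89), 5 without the control limb of animal 372, 1 without the repeated atrophy limb of animal 364 and 0 on unrescaled values (median -0.21). The part of these cell types in the other results was not tested. Of the collagen and matrix genes few were called, 3 of 33 higher and 2 lower (6 lower with an animal block), though Bgn, the matrix proteoglycan biglycan, rose to 159, 161 and 147 against 20.3, 31.6 and 49.6 (log2 fold change 2.16, SE 0.43, adjusted p = 0.0014). Among interferon and antigen genes B2m, the light chain of the antigen-presenting complex, rose to 1493, 2671 and 1983 against 413, 576 and 723 (log2 fold change 1.81, SE 0.24, adjusted p = 8.1e-05), whereas 2 of 24 in all rose and 1 fell.

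Repeated atrophy was then set against the recovery limbs, which had the same initial TTX period and no second one. Of 14031 rows, 3033 (21.6%) differed, 1447 (10.3%) higher and 1586 (11.3%) lower, in limbs of different animals. With animal as a block, where the comparison becomes a difference between within-animal differences, 7 rows were called. With animal as a random effect, which also uses differences between animals, 2819 were called, 1357 higher and 1462 lower. The loss of recovery limb 369 or 370, or of repeated atrophy limb 364, left 1574, 1671 or 1819. In the fit without the block, Perm1 had a log2 fold change of -5.40 against recovery (adjusted p = 0.00022), Ache -4.12 (adjusted p = 0.0021) and Fbp2 -5.01 (adjusted p = 0.0021). Chrna1 had 3.05 (adjusted p = 0.0077) and Myog 3.14 (adjusted p = 0.0028). Collagen and matrix genes were lower in 25 of 33 cases and leukocyte genes in 14 of 20 against recovery limbs, and 22 of 33 and 14 of 20 were higher in recovery than in control limbs, where 12.1% of all rows were called, 6.26% higher and 5.84% lower. Glycolysis was lower in 19 of 35, and complexes II to V in 25 of 41.

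Against the limbs of the initial atrophy group, no row passed in the limma test (0 of 14031, 0%). An unadjusted p below 0.05 was found in 905 rows, where a fraction of 0.05 of the 14031 is expected without any difference. In that initial group 1368 rows (9.75%) were called against control, 4.62% higher and 5.13% lower, in repeated atrophy 3548, and the counts alone do not test whether the responses differ. Values differed between the animals of the initial group, whose list medians for glycolysis ran from -1.54 to -0.37, and leaving out the atrophy limb of animal 362 raised the calls to 66. Dclk1 was at a log2 fold change of 1.57 in atrophy and 4.11 in repeated atrophy against control (difference 2.55, adjusted p = 0.46), Perm1 at -2.51 and -4.93 (difference -2.42, adjusted p = 0.31) and Chrna1 at 2.41 and 4.11 (difference 1.70, adjusted p = 0.72). None of these differences passed the test.

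The table lists several rows for 512 of the tested symbols, and for 3 of these called rows went in opposite directions: Efemp2, Stau2 and Taf9, chosen after their values were seen. Stau2, an RNA-binding protein of transport granules, had a row that rose (log2 fold change 1.12, adjusted p = 0.00043) and another that fell (log2 fold change -0.74, adjusted p = 0.013). Taf9, a subunit of the transcription initiation complex, had rows at 1.2045 (adjusted p = 0.00049) and -0.92 (adjusted p = 0.037). Which transcript isoforms these rows stand for cannot be told from the table.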

How the data were processed

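Polyadenylated RNA of the TA was sequenced from both limbs of 12 rats, with directional libraries. Per the labels and the methods of the study, contaminant reads were removed with Bowtie2 (version 2.2.5), the remaining reads were aligned to rn7 with STAR and processed in Partek Flow. The counting step and its annotation are not given in the sources used here. The authors deposited CPM, and each of the 24 columns used summed to 1000000. The authors also deposited a transcript length in bases for each row (unit: other), which was used only for levels per kilobase. The table has 3 further value columns that match no sample record, and these were not used.

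After removal of 28 exact duplicates from 14271 rows, 14243 remained, with 13458 symbols. Between 85.9% and 88.0% of low values were whole multiples (within 0.02 reads) of the value of 1 read, so read numbers were not treated as recovered and no count test was run. Depth was inferred from that step. CPM were divided by median-of-ratios size factors, the normalization the study names, and log2(rescaled CPM + 1) was tested in R 4.3.3 by limma (version 3.58.1, intensity trend). The fit held 18 libraries (9 control, 3 atrophy, 3 recovery, 3 repeated atrophy), without a block. Rows above 0 in at least 3 of them were tested. A fold change on this scale understates the change of low genes. The script was tested on simulated data. Python 3.11.15, numpy 2.4.6, pandas 2.3.3 and matplotlib 3.10.9 were used.

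The labels pair the limbs of each animal, so fits with animal as a fixed block (the animal block of the text) or as a random effect were alternatives. Over 6692 rows, deviations of a repeated atrophy limb from its group mean had a correlation with those of its own right limb of 0.341, -0.285 and 0.601 in animals 364, 365 and 366. Other alternatives were deposited values, TMM and quantile scaling, other pseudocounts, filters, control sets and limma settings, rows summed per symbol, and leaving out each limb.

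The members and lists (35 pathway and 10 cell type lists) were chosen with earlier results of these data known. Named genes were the 12 largest rises and 12 largest falls among called genes without overlap and with a mean of at least 10 rescaled CPM in a group, the 4 largest called changes of each list under the same minimum, and list members needed to describe a pathway. A gene that the rule names is not reported here. For a symbol with several rows, the row with the highest mean over the 12 limbs was used. Promoters came from RefSeq (GRCr8) by symbol, and coordinates in rn7 were not mixed with them.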

Additional observations from a re-analysis of the deposited data

Results flagged for a closer look

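Among the control limbs, single limbs stood far from the other 8 for 7 of the 105 genes described, by the gap to the nearest limb over the whole range. Chance gives such a gap in about 1 of 20 groups. The right limb of animal 372 was the one in 6 of them: it was lowest for Ache (10.99 rescaled CPM, control median 76.5), Gpd1 (161, median 1288) and Dhrs7c (88.0, median 286), and highest for Trim63 (1838, median 323), Sqstm1 (1945, median 789) and Polr1a (216, median 48.8). The right limb of animal 367 was lowest for Odc1 (16.5, median 39.8). Between the repeated atrophy and recovery limbs, 3033 rows differed in the limma test of the difference.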

How the results depend on the processing

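The direction of 97 called and 8 uncalled genes held in all but 6 of 3984 pairs of gene and alternative, and the call in 3806. Directions turned for genes that were not called: Myh2 on deposited values (0.019) and after quantile normalization (0.071), Myh4 after quantile normalization (0.035), and Scn4a (0.22), Lpl (-0.051) and Fbxo32 (-0.24) against the sham left limbs. The sham left limbs as control ended the call of 56 genes and left 613 rows called, 366 higher and 247 lower. The own right limbs as control ended 12 calls (Chrng, Musk, Myod1, Hdac4, Hk2, Cycs, Fabp3, Fbxo31, Myh3, Tnnt2, Atp2a1 and C1qc) and left 2056 rows, 1011 higher and 1045 lower. Leaving out the repeated atrophy limb of animal 364, 365 or 366 ended 9, 12 or 8 calls of described genes. Testing against the fold change itself (limma treat) ended 11 calls of described genes. It left 1586, 762 and 824 rows against control and 1124, 476 and 648 against recovery. Deposited values gave 3936 higher and 876 lower against control, 2941 and 882 against recovery, and 5 rows (2 higher, 3 lower) against atrophy. Against atrophy, where 0 were called, quantile normalization gave 9 (5 higher, 4 lower) and a pseudocount of 10 gave 1 (1 higher). A mean of at least 10 left 1034 lower against recovery. With the animal as a replicate block, 7 rows (2 higher, 5 lower) differed from recovery, the calls of Fbxo31, Sqstm1 and Atp2a1 ended, and no other call of a described gene changed. With the animal as a random effect, 3938 rows were called against control and 2819 against recovery, and no call of a described gene changed. Leaving out each limb gave 2270 to 3909 rows against control (1205 to 2053 higher, 1065 to 1856 lower), 1574 to 3264 against recovery (697 to 1572 higher, 854 to 1692 lower) and 0 to 66 against atrophy (0 to 34 higher, 0 to 32 lower). The cause of these shifts was not tested. Groups of 3 limbs and the mixed stages of the control limbs limit how far single values can be read.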
